A study of Drosophila melanogaster with 24 samples.

Results

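The genes described here are those that the annotation of the array names as seminal fluid protein genes of *Drosophila melanogaster*: every probe set with a single gene symbol that is Acp (accessory gland protein) or Sfp (seminal fluid protein) followed by a digit, other than Acp65, together with *SP* (sex peptide), *Dup99B*, *Sems* (seminase) and *Est-6*. This rule took 23 of the 18769 probe sets that are not controls, 1 for each of 23 genes of the 11982 with a probe set of their own: 14 Acp genes, 6 Sfp genes, *SP*, *Dup99B* and *Sems*. No probe set was found under the symbol *Est-6*, so 3 of the 4 genes named singly were measured. Expression was measured in whole male flies with 24 arrays of the type Affymetrix Drosophila Genome 2.0, in 8 groups of 3. The flies came from a laboratory stock founded from field-collected isofemale lines. Through development and as young adults they were kept at a mean of 15 or 25 °C, held constant or fluctuating daily around that mean. They were under a week old, were moved to 20 °C before the assay, and were frozen either at 20 °C or after heating at 0.1 °C per minute to 35 °C. Each of the 4 rearing regimes had a single cabinet and each array a pool of males, so that the replicates are pools from 1 cabinet and the p-values measure the spread between such pools. The effects of mean temperature and of fluctuation cannot be told apart from differences between cabinets.

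Seminal fluid proteins are made mainly in the paired accessory glands of the male and, for a few, in the ejaculatory duct and bulb, and are passed to the female with the sperm. Sex peptide lowers the readiness of mated females to mate again and raises egg laying through the sex peptide receptor, and other members of the class act on ovulation, on the storage of sperm and on the cleavage of seminal proteins inside the female. Several are proteases, protease inhibitors or lectins, and several of the genes lie in small clusters of duplicated copies.

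The deposited values are GC-RMA expression levels on the log2 scale, so that a difference of 1 is a doubling, and the level of 1 probe set cannot be set against that of another. The third array of the group 15 °C fluctuating, 35 °C correlated with the other arrays at only 0.208 to 0.216 and was left out, which leaves 2 arrays in that group and 23 in all. On that array *SP* read 8.87 and *Acp26Ab* 3.50, against 13.11 to 13.63 and 11.27 to 12.27 on the others. Of the markers of testis, 23 of 24 were found, and their median level was 10.89 to 12.01 on the arrays used. Of the markers of egg shell and yolk, which males should lack, 15 of 19 were found, with a median of 3.87 to 4.64 on 22 arrays and of 8.62 on the first array of 15 °C constant, 20 °C. Leaving out that array added 6 calls of members and removed 4 over all contrasts, and most of these changes are given below. Fits without that array were read for the members only, not for the markers and other listed genes.

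Over the 23 arrays the mean level ran from 4.36 for *Sfp65A* to 13.67 for *Acp98AB*. The highest value of any probe set was 14.77. Average changes with mean temperature ran from -0.29 to 0.20 for the 6 members with a mean level of at least 13. These were *Acp53C14a*, *Acp53C14b*, *Acp53Ea*, *Acp98AB*, *Dup99B* and *SP*. For the 17 members under 13 the changes ran from -1.41 to 0.63. Whether changes read smaller near the top of the scale was not tested. Group means of the members ran from 4.25 to 13.85, and the SD within groups had a median of 0.067 and reached 0.54 for *Acp76A* in 25 °C fluctuating, 35 °C. Since whole flies were measured, fewer gland cells and less RNA per cell cannot be told apart in any of these values. The plot of levels by array shows 9 of the members.

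**Figure D1:**
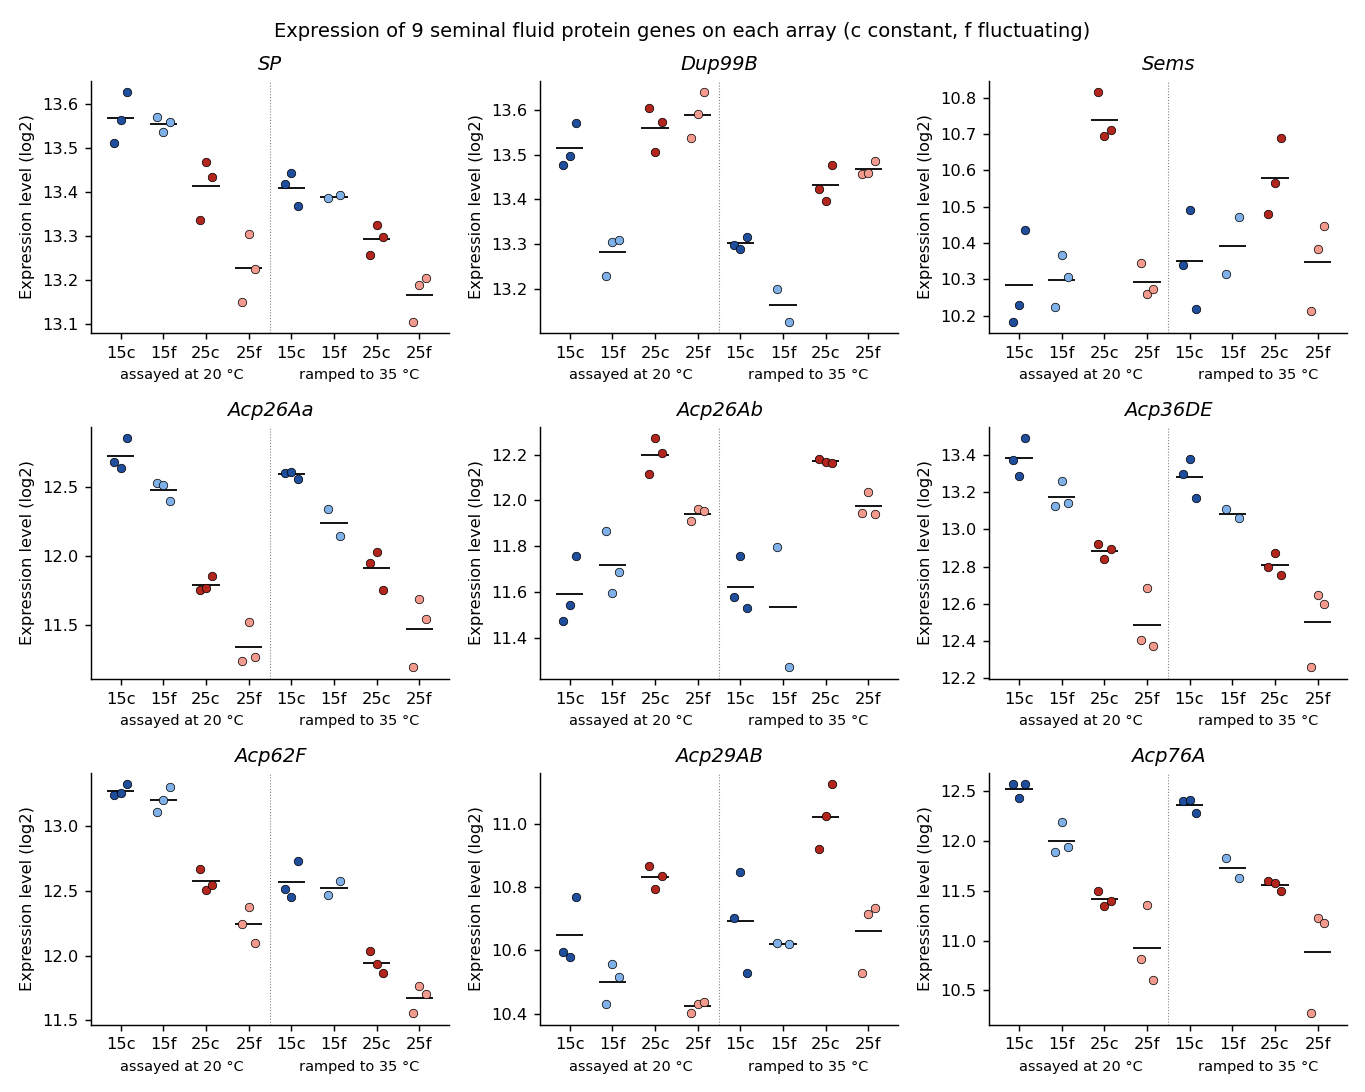
Expression level (log2) of 9 members on each of the 23 arrays; c and f mark the constant and the fluctuating regime, points are arrays and the lines are group means. *Acp26Aa*, *Acp36DE*, *Acp62F* and *Acp76A* were lower at 25 than at 15 °C, *Acp26Ab* was higher, and *Acp62F* was also lower after the ramp in every regime.

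The first comparison asked how the members differ between flies kept through development and as young adults at a mean of 25 and of 15 °C. Most were lower in the warmer flies: averaged over the 4 contrasts between matched groups, 13 members fell and 6 rose (adjusted p under 0.05, limma), and 4 did not pass the test. Of all probe sets 27.1% were called lower and 28.9% higher in this average. The median change of the members was -0.21 on the log2 scale, against 0.0026 over all probe sets. A total of 12 members were below 0 in all 4 contrasts, as were 27.7% of all probe sets, and 9 were called lower in all 4, as were 12.9%. A single member, *Acp32CD*, was called higher in all 4, as were 8.89% of all probe sets. Between the constant regimes 14 members were called at 20 °C, 10 of them lower, where 43.0% of all probe sets were called and 21.0% lower, and 14 at 35 °C, 9 of them lower, where 43.6% and 21.8% were. Between the fluctuating regimes 17 were called at 20 °C, 15 of them lower, where 35.3% of all probe sets were called and 17.7% lower, and 14 at 35 °C, 11 of them lower, where 33.1% and 19.4% were. Of the 19 calls in the average, 18 held with each array left out in turn. That of *Sfp24Bb*, at 0.10 ± 0.04 (adjusted p = 0.037), was lost in 13 of the 23 fits, with an adjusted p of up to 0.088.

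Among the genes with roles in ovulation and sperm storage, *Acp26Aa* encodes ovulin, which stimulates the release of eggs from the ovary. Its level on the 11 arrays at 15 °C was 12.15 at the lowest, 12.56 at the median and 12.85 at the highest, and on the 12 arrays at 25 °C it was 11.19, 11.72 and 12.03. The arrays of the 2 mean temperatures did not overlap, and the average change was a fall of 1.84-fold, or -0.88 ± 0.06 (SE) on the log2 scale (adjusted p = 4.5e-11, limma). *Acp36DE*, a glycoprotein that is needed for sperm to be stored, lay between 13.06 and 13.49 at 15 °C and between 12.26 and 12.92 at 25 °C, again without overlap. It fell by 0.56 ± 0.05 (adjusted p = 5.4e-09). *Acp29AB*, a lectin-like protein with a part in sperm retention, had overlapping arrays, at 10.43 to 10.85 and 10.40 to 11.12, and was higher at 25 °C by 0.12 ± 0.04 (adjusted p = 0.022). Its rise was called only in the contrast of constant regimes at 35 °C, where it was 0.33 ± 0.08 (adjusted p = 0.0024).

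Both protease inhibitors with known roles were lower at 25 °C. *Acp76A*, which belongs to the serpins, an inhibitor family, ranged from 11.63 to 12.57 at 15 °C, with a median of 12.28, and from 10.27 to 11.60 at 25 °C, with a median of 11.35. It fell 1.94-fold, by 0.96 ± 0.10 (adjusted p = 2.7e-08), and did not overlap between the mean temperatures. *Acp62F*, a trypsin inhibitor, fell by 0.78 ± 0.05 (adjusted p = 1.4e-11), with changes of -0.62 to -0.96 in the 4 contrasts. *Sems*, a serine protease at the start of a cascade that cleaves ovulin and Acp36DE in the mated female, moved the other way, by 0.16 ± 0.05 (adjusted p = 0.005). This rise was found between the constant regimes, at 0.46 ± 0.09 at 20 °C (adjusted p = 0.0003) and 0.23 ± 0.09 at 35 °C (adjusted p = 0.041), while between the fluctuating regimes the values were -0.01 and -0.04 (adjusted p = 0.97 and 0.77).

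*SP* and *Dup99B* encode related peptides that act on the same receptor in the female, the first made in the accessory gland and the second in the ejaculatory duct. *SP* was lower at 25 °C, at 13.11 to 13.47 against 13.37 to 13.63, a fall of 0.21 ± 0.03 (adjusted p = 9.4e-06). *Dup99B* was higher, at 13.40 to 13.64 against 13.13 to 13.57, by 0.20 ± 0.03 (adjusted p = 7.3e-06). The arrays of both genes overlapped between the mean temperatures. Single contrasts passed the test for both genes in the fluctuating regimes only, where *SP* changed by -0.33 and -0.22 (adjusted p = 0.00035 and 0.017) and *Dup99B* by 0.31 and 0.30 (adjusted p = 0.00036 and 0.0014). In the constant regimes *SP* changed by -0.15 and -0.12 and *Dup99B* by 0.05 and 0.13 (adjusted p between 0.051 and 0.57). Without the first array of 15 °C constant, 20 °C, *SP* was called in the constant regimes at 20 °C as well, at -0.18 (adjusted p = 0.041). Whether mean temperature acted differently in the 2 regimes is the same question as whether fluctuation acted differently at the 2 means, and no member was called in those tests, given with the regimes.

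The widest change of any member was that of *Acp53C14c*, which fell 2.66-fold, by 1.41 ± 0.09 (adjusted p = 5.2e-11). It read 9.25 to 9.94 at 15 °C and 7.34 to 8.63 at 25 °C, without overlap. In the annotation of RefSeq, *Acp53C14a*, *Acp53C14b*, *Acp53Ea* and *Acp53C14c* are neighbours with no other protein-coding gene between them, and *Sfp53D* lies 1 gene away. The other 3 genes of the cluster, all with a mean level of at least 13, also fell. They fell by 0.24 ± 0.03, 0.26 ± 0.03 and 0.29 ± 0.04 (adjusted p of 7e-07 or less), while *Sfp53D* changed by -0.01 ± 0.04 (adjusted p = 0.89). For *Sfp53D* this average joined opposite changes, of 0.23 and 0.21 between the constant regimes (adjusted p = 0.016 and 0.031) and of -0.27 and -0.21 between the fluctuating ones (adjusted p = 0.0088 and 0.068). The first of these 4 was at an adjusted p of 0.065 without the first array of 15 °C constant, 20 °C. The probe set of *Sfp53D* is of a kind whose probes can be shared by transcripts of different genes, though the annotation names a single symbol. *Acp32CD*, whose role is not given here, rose most, by 0.63 ± 0.05 (adjusted p = 5.3e-10), from between 10.98 and 11.46 at 15 °C to between 11.69 and 12.06 at 25 °C, without overlap.

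*Acp26Ab* lies next to *Acp26Aa* in the genome and moved in the opposite direction. It read 11.27 to 11.87 at 15 °C and 11.91 to 12.27 at 25 °C and was higher by 0.46 ± 0.06 (adjusted p = 3.2e-07), where its neighbour fell by 0.88. The highest array at 15 °C, at 11.87, was just below the lowest at 25 °C, at 11.91. Over the 23 arrays the levels of the 2 genes correlated at r = -0.61, and their deviations from the group means at r = 0.44. Both values are descriptions: the arrays share the 8 groups, and the 2 probe sets share each hybridisation. The probe set of *Acp26Ab* is of a kind that can read several transcripts of 1 gene.

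**Figure D2:**
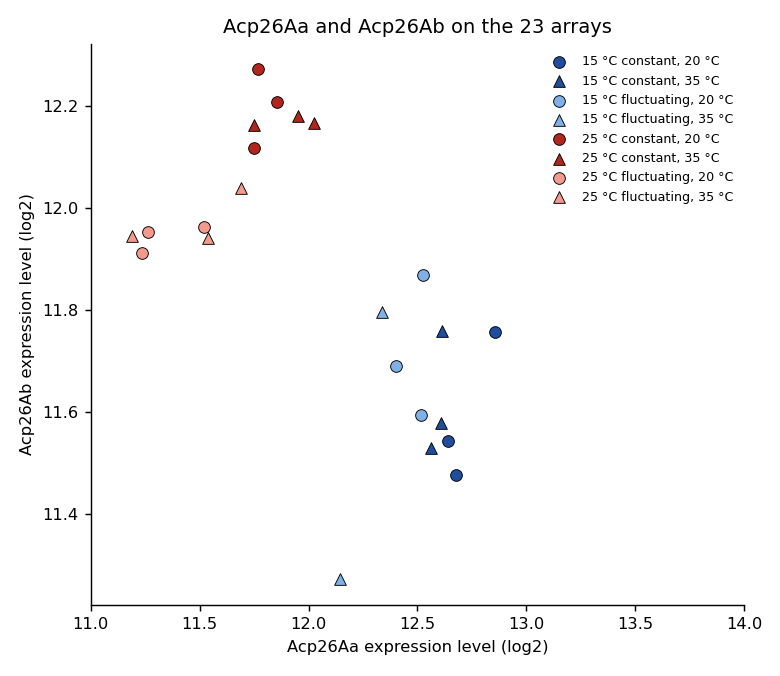
Expression level (log2) of *Acp26Ab* against that of its neighbour *Acp26Aa* on the 23 arrays; blue symbols are 15 °C and red 25 °C, dark symbols constant and light fluctuating, circles 20 °C and triangles 35 °C. The arrays of 25 °C lie at lower *Acp26Aa* (11.19 to 12.03) and higher *Acp26Ab* (11.91 to 12.27) than those of 15 °C.

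**Figure D3:**
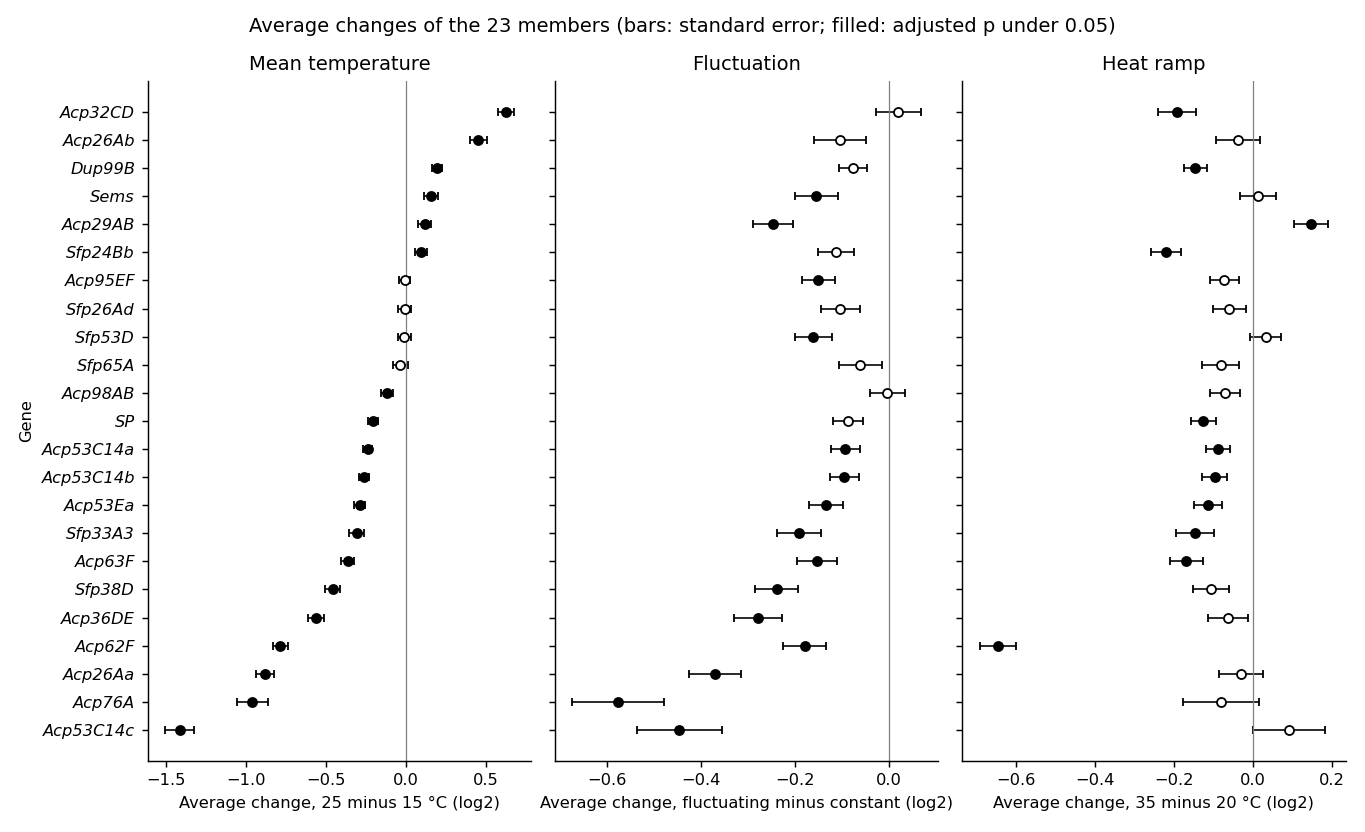
Average change of each of the 23 members over the 4 contrasts of mean temperature (25 minus 15 °C), fluctuation (fluctuating minus constant) and heat ramp (35 minus 20 °C), on the log2 scale, in the order of the first; bars are standard errors and filled points have an adjusted p under 0.05. Called changes go both ways for mean temperature (6 higher, 13 lower), while for fluctuation all 15 are lower and for the ramp 10 of 11.

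The second comparison set flies from fluctuating temperatures against flies from constant temperatures of the same mean. In the average of the 4 contrasts 15 of the 23 members were called lower under fluctuation and none higher, where 6.41% of all probe sets were called lower and 8.82% higher. The other 8 did not pass the test. In all, 22 members were below 0 in this average, and the share of all probe sets below 0 in it was not counted. The median change of the members was -0.15, against -0.0005 over all probe sets. There were 12 members below 0 in all 4 contrasts, as were 11.6% of all probe sets, and none was above 0 in all 4, as were 14.3%. The same 23 arrays were used here as for mean temperature. With any 1 array left out, 12 to 16 members were called, and 11 of the 15 calls held each time. Those that did not were *Acp53C14a*, *Acp53C14b*, *Sems* and *Acp63F*, which lost the call in 18, 20, 5 and 1 of the 23 fits, with adjusted p of at most 0.078, 0.082, 0.064 and 0.053. Without the first array of 15 °C constant, 20 °C, *Acp53C14a* was at an adjusted p of 0.055 and *Sfp26Ad* was called, at 0.043.

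*Acp76A* had the lowest average, at -0.58 ± 0.10 or 1.49-fold (adjusted p = 0.0008), and was the only member called with a size above 0.5. In the fluctuating and the constant regime it read 11.89, 12.19 and 11.94 against 12.57, 12.43 and 12.57 at 15 °C and 20 °C, and 10.82, 11.36 and 10.60 against 11.50, 11.35 and 11.39 at 25 °C and 20 °C. The 3 arrays of the regimes lay apart at 15 °C, while at 25 °C the second fluctuating array lay among the constant ones. *Acp53C14c* followed at -0.45 ± 0.09 (adjusted p = 0.0032), ovulin (*Acp26Aa*) at -0.37 ± 0.06 (adjusted p = 0.00032), *Acp36DE* at -0.28 ± 0.05 (adjusted p = 0.0014) and *Acp29AB* at -0.25 ± 0.04 (adjusted p = 0.00099). *Acp62F* fell by 0.18 ± 0.05 (adjusted p = 0.013) and *Sems* by 0.15 ± 0.05 (adjusted p = 0.027). A total of 16 members were called in none of the 4 single contrasts, among them *Acp76A*, *Acp53C14c*, ovulin and *Acp36DE*.

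For *SP*, *Dup99B* and *Acp26Ab* the average did not pass the test, at -0.09 ± 0.03, -0.08 ± 0.03 and -0.10 ± 0.06 (adjusted p = 0.073, 0.089 and 0.22). The highest averages of the members were those of *Acp32CD*, at 0.02 ± 0.05, *Acp98AB*, at -0.0036 ± 0.04, and *Sfp65A*, at -0.06 ± 0.05 (adjusted p of 0.42 or more). A p that misses the threshold does not show that the regimes had the same level.

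**Figure D4:**
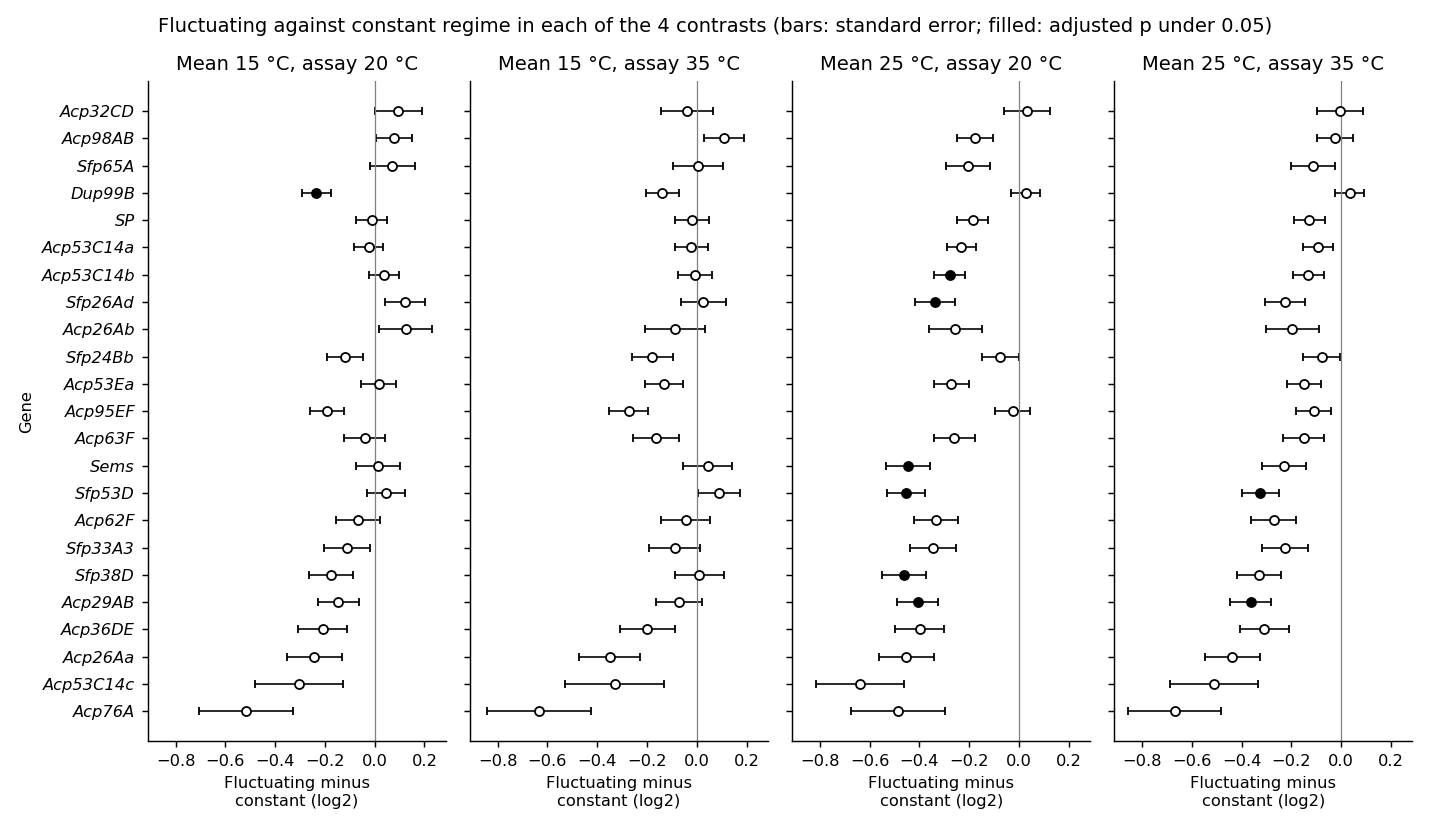
Change between the fluctuating and the constant regime (log2) of each of the 23 members in the 4 contrasts, in the order of the average; bars are standard errors and filled points have an adjusted p under 0.05. At a mean of 25 °C 21 and 22 members lie below 0, and at 15 °C 14 and 17.

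At a mean of 25 °C, 21 members were below 0 at 20 °C and 22 at 35 °C, and at 15 °C 14 and 17 were. The medians of the members were -0.28 and -0.20 at 25 °C and -0.04 and -0.07 at 15 °C. Over all probe sets these medians were -0.0052, -0.0208, 0.0035 and 0.0343. Shares of all probe sets below 0 in single contrasts were not counted. At 25 °C and 20 °C 6 members were called lower, where 0.879% of all probe sets were called lower: *Sfp38D*, *Sfp53D*, *Sems*, *Acp29AB*, *Sfp26Ad* and *Acp53C14b*. *Sfp53D* had the smallest adjusted p. It read 10.12, 10.20 and 10.05 under fluctuation and 10.59, 10.55 and 10.59 at constant temperature, a fall of 0.46 ± 0.08 (adjusted p = 0.0073). *Acp29AB* read 10.40, 10.43 and 10.44 against 10.87, 10.79 and 10.83, a fall of 0.41 ± 0.08 (adjusted p = 0.025). *Sems* read 10.34, 10.26 and 10.27 against 10.81, 10.69 and 10.71, a fall of 0.45 ± 0.09 (adjusted p = 0.02). For these 3 genes the arrays of the 2 regimes did not overlap. Since the genes were called on the same arrays, this describes the values and adds no support. Here and in the other comparisons, the share of all probe sets without overlap was not counted. The number called rested on single arrays: it was 0 without the first array of 25 °C constant, 20 °C or without the first or the third of 25 °C fluctuating, 20 °C, was 1 and 2 without the second and the third constant array, and was 10 without the second fluctuating one.

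At 25 °C and 35 °C *Acp29AB* and *Sfp53D* were called lower, by 0.36 ± 0.08 and 0.32 ± 0.08 (adjusted p = 0.046 and 0.047), where 0.437% of all probe sets were. This count was 0 in 14 of the 23 fits with 1 array left out, also of other groups, 1 without either array of 15 °C fluctuating, 35 °C, 4 without the first array of 15 °C constant, 20 °C, where ovulin and *Sfp38D* were added at adjusted p of 0.046 and 0.047, and 6 without the third of 25 °C fluctuating, 35 °C. At 15 °C and 20 °C *Dup99B* alone was called, at 13.23, 13.31 and 13.31 under fluctuation against 13.48, 13.50 and 13.57, a fall of 0.23 ± 0.06 (adjusted p = 0.038) where 0.655% of all probe sets were called lower. Its arrays did not overlap, but its adjusted p rose to as much as 0.15 with 1 array left out, and was 0.062 without the first array of 15 °C constant, 20 °C, which carries egg shell transcripts. At 15 °C and 35 °C no member was called (limma), where 2.22% of all probe sets were called in either direction, and 5 members had an unadjusted p under 0.05, as did 16.2% of all probe sets.

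The change with fluctuation was lower at 25 than at 15 °C for 19 of the 23 members at 20 °C and for 18 at 35 °C. The share of all probe sets with a lower change was not counted. The median difference of the members was -0.25 at 20 °C and -0.11 at 35 °C, against -0.0070 and -0.0419 over all probe sets. In the test of this difference itself no member was called by limma, where 0.0746% of all probe sets were at 20 °C and 0.0320% at 35 °C. At an unadjusted p under 0.05 these were 13 and 3 members, and 13.9% and 13.5% of all probe sets. *Sfp53D* came closest, with a difference of -0.50 ± 0.11 at 20 °C (adjusted p = 0.082) and of -0.41 ± 0.11 at 35 °C (adjusted p = 0.15). At 15 °C it read 10.33, 10.37 and 10.47 under fluctuation against 10.28, 10.29 and 10.47 at 20 °C. *Dup99B* differed in the other direction, by 0.26 ± 0.08 at 20 °C (adjusted p = 0.20).

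The third comparison set flies heated to 35 °C against flies of the same rearing kept at 20 °C. In the average of the 4 contrasts 10 members were called lower and 1 higher, where 17.0% of all probe sets were called lower and 16.2% higher. The median change of the members was -0.08, against 0.0048 over all probe sets. At 15 °C constant, 15 °C fluctuating and 25 °C constant 19 members each were below 0, with medians of -0.13, -0.17 and -0.09, while at 25 °C fluctuating 9 were, with a median of 0.02. Over all probe sets these 4 medians were 0.02, 0.04, -0.03 and -0.02. The share of all probe sets below 0 in each of these 4 contrasts was not counted. All 4 contrasts were below 0 for 7 members, as for 21.4% of all probe sets. Of the 11 calls, 9 held with each array left out in turn. *Acp53C14a* reached an adjusted p of 0.057 without the second array of 25 °C fluctuating, 20 °C, and 0.054 without the third of 15 °C constant, 20 °C, and *Acp53Ea* 0.051 without the second of 15 °C fluctuating, 35 °C. Without the first array of 15 °C constant, 20 °C, *Sfp38D* was called lower as well (adjusted p = 0.04).

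The trypsin inhibitor gene *Acp62F* stood out from the other members. At 15 °C constant it read 12.52, 12.46 and 12.73 after the ramp and 13.24, 13.26 and 13.33 at 20 °C, and at 15 °C fluctuating 12.47 and 12.58 against 13.11, 13.20 and 13.30. At 25 °C constant it read 12.03, 11.94 and 11.87 against 12.67, 12.51 and 12.55, and at 25 °C fluctuating 11.56, 11.77 and 11.71 against 12.25, 12.38 and 12.10. The arrays of the 2 assay temperatures did not overlap in any regime. The change was -0.71 ± 0.09, -0.68 ± 0.10, -0.63 ± 0.09 and -0.57 ± 0.09 (adjusted p of 7.1e-05 or less), and on average 1.56-fold, or -0.65 ± 0.05 (adjusted p = 2.5e-10). It was the only member called lower in all 4 contrasts, as were 3.45% of all probe sets. With 1 array left out its adjusted p in a single contrast was at most 0.0016.

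The other called changes with the ramp were between -0.22 and 0.15. *Sfp24Bb* fell by 0.22 ± 0.04 (adjusted p = 8.7e-05), *Acp32CD* by 0.19 ± 0.05 (adjusted p = 0.003), *Acp63F* by 0.17 ± 0.04 (adjusted p = 0.0034), *Dup99B* by 0.15 ± 0.03 (adjusted p = 0.00056) and *SP* by 0.13 ± 0.03 (adjusted p = 0.0035). *Acp29AB* was the member called higher, by 0.15 ± 0.04 (adjusted p = 0.0095), and was above 0 in all 4 contrasts, at 0.04 to 0.24, none of which passed the test. The other highest averages, of *Acp53C14c* (0.09 ± 0.09), *Sfp53D* (0.03 ± 0.04) and *Sems* (0.01 ± 0.05), did not pass it (adjusted p between 0.51 and 0.87), nor did ovulin at -0.03 ± 0.06 (adjusted p = 0.75), *Acp36DE* at -0.06 ± 0.05 (adjusted p = 0.39) and *Acp76A* at -0.08 ± 0.10 (adjusted p = 0.59). With each array centred on its median, *Acp53C14a*, *Acp53C14b*, *Acp53Ea* and *Sfp33A3* were no longer called, at adjusted p of 0.12, 0.0995, 0.09 and 0.079.

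In single contrasts of the ramp few members were called, all of them lower. At 15 °C constant these were *Acp62F*, *Dup99B* (-0.21 ± 0.06, adjusted p = 0.015) and *Sfp33A3* (-0.28 ± 0.09, adjusted p = 0.0496), where 8.29% of all probe sets were called lower. *Sfp33A3* was at 0.072 without the first array of 15 °C constant, 20 °C. *Dup99B* read 13.30, 13.29 and 13.32 after the ramp against 13.48, 13.50 and 13.57, without overlap. At 15 °C fluctuating 4 were called, *Acp62F*, *Acp63F*, *Sfp24Bb* and *Acp53Ea*, where 5.67% of all probe sets were, and at 25 °C only *Acp62F*, where 10.1% of all probe sets were in the constant and 8.87% in the fluctuating regime. The counts at 15 °C fell to 1 without the third array of 15 °C constant, 20 °C or the second of 15 °C constant, 35 °C, and to 2 without the first of 15 °C fluctuating, 20 °C or the second of 15 °C fluctuating, 35 °C. At 25 °C, 2 members were called in the constant regime without the first array of 25 °C fluctuating, 35 °C, and in the fluctuating regime without any of 5 arrays: the second or the third of 15 °C constant, 35 °C, the second of 25 °C fluctuating, 20 °C, and the first or second of 25 °C fluctuating, 35 °C. No member was called for a difference in its ramp change between mean temperatures (limma), where 0.650% of all probe sets were in the constant and 0.0693% in the fluctuating regime, and 0 and 5 members had an unadjusted p under 0.05, as did 9.14% and 7.28% of all probe sets.

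Across the 3 comparisons 7 members were called in all 3 averages: *Acp29AB*, *Acp53C14a*, *Acp53C14b*, *Acp53Ea*, *Acp62F*, *Acp63F* and *Sfp33A3*. Of all probe sets 5.37% were called in all 3, in either direction. *Sfp26Ad* and *Sfp65A* were called in none. Over the 253 pairs of members the levels on the 23 arrays correlated at a median r of 0.37, with a range from -0.86 to 0.98, and 63 pairs were below 0. Ovulin, *Acp36DE*, *Acp76A* and *Acp53C14c* were alike (r = 0.98 for *Acp26Aa* with *Acp36DE*, 0.97 with *Acp53C14c* and 0.97 with *Acp76A*), as were *SP*, *Acp53C14a*, *Acp53C14b* and *Acp53Ea* (r = 0.95 to 0.96 for *SP* with the other 3). Between the first 4 of these genes and the other 4 the values ran from 0.79, for *Acp53C14c* with *SP*, to 0.94, for *Acp36DE* with *Acp53C14a*, so that the 2 sets were not separate. *Sems*, *Acp29AB*, *Sfp26Ad* and *Sfp53D* were alike among themselves at r = 0.53 to 0.84. *Acp32CD* had negative coefficients, with r = -0.82 for ovulin and -0.86 for *Acp53C14c*. These coefficients are over arrays that share the 8 groups and carry no test.

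Part of this likeness was found within groups as well. Taken as deviations from the group means, the median r over the pairs was 0.36, and 32 of the 253 pairs were below 0. All 23 members were above the group mean on the third array of 15 °C constant, 20 °C, where 4 and 2 were on the first and the second array of that group. On the first array of 25 °C fluctuating, 35 °C, 2 of the 23 were above it, with *Acp76A* 0.62 below. On the second array of 25 °C fluctuating, 20 °C, 20 were above it, with *Acp53C14c* 0.54 above. Whether such shifts of whole arrays have a part in the changes given here was not tested. The share of all probe sets above their group means on these arrays was not counted. Averages over 11 or 12 arrays a side rest less on any 1 of them than single contrasts of 3 against 3.

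**Figure D5:**
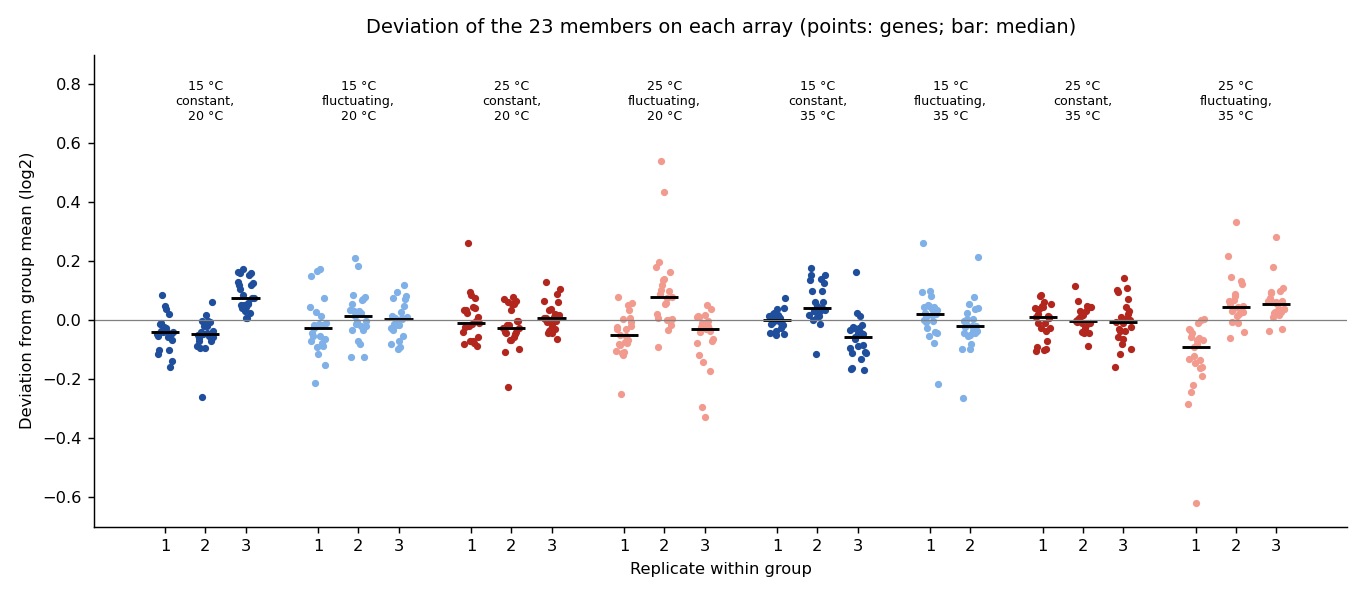
Deviation of each of the 23 members from its group mean (log2) on each array, for the 8 groups; points are genes and the bar is the median of the array. The third array of 15 °C constant, 20 °C has all 23 members above 0, and the first array of 25 °C fluctuating, 35 °C has 2.

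Further genes of the seminal fluid and of the sex peptide network, which the naming rule does not take, were listed by hand, and 29 of 31 were found. Of these *EbpII*, *EbpIII*, *Gld* and *Anp* are also the 4 genes of the ejaculatory bulb and duct given after them. With mean temperature 12 rose and 8 fell in the average, where 28.9% of all probe sets rose and 27.1% fell. The highest were *lectin-46Cb* and *CG17575*, at 0.69 ± 0.05 and 0.65 ± 0.05 (adjusted p = 3.2e-10 and 1e-09), 2 of the genes that sex peptide needs to stay bound to stored sperm, and the lowest the serpin genes *Spn28F* and *Spn38F*, at -1.33 ± 0.06 and -0.58 ± 0.04 (adjusted p = 9.5e-13 and 5.3e-10). Under fluctuation 13 fell and 1 rose, with a median of -0.14, where 6.41% of all probe sets fell and 8.82% rose. *Obp56e*, an odorant-binding protein gene, and *Spn28F* were lowest, at -0.53 ± 0.08 and -0.43 ± 0.06 (adjusted p = 0.00021 and 0.00026), and the sex peptide receptor gene *SPR*, whose protein acts in the female and the nervous system, was highest, at 0.17 ± 0.06 (adjusted p = 0.0497). With the ramp 12 fell and 4 rose, where 17.0% of all probe sets fell and 16.2% rose, from *Spn77Bb* and *hdly*, at -0.41 ± 0.08 and -0.29 ± 0.05 (adjusted p = 0.00053 and 0.00017), to *Obp56f* and *Obp8a*, at 0.17 ± 0.05 and 0.80 ± 0.08 (adjusted p = 0.0072 and 7.5e-08).

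Genes of other tissues were read beside the members, and their part in the members' changes was not tested. Of all probe sets 28.9% rose and 27.1% fell in the average of mean temperature. Under fluctuation 8.82% rose and 6.41% fell, and with the ramp 16.2% and 17.0%. Testis genes were lower at 25 °C, with 22 of 23 called lower and 1 higher, and their median level was 11.53 to 12.01 on the arrays of 15 °C and 10.89 to 11.52 on those of 25 °C. Their lowest average changes were those of *topi* and *can*, at -1.21 ± 0.06 and -0.76 ± 0.08 (adjusted p = 2.8e-12 and 3.4e-08), and *mia* was highest, at 0.50 ± 0.05 (adjusted p = 6e-09). Under fluctuation, where 15 members fell, 6 testis genes rose and none fell, led by *mia* and *bol* at 0.36 ± 0.05 and 0.26 ± 0.06 (adjusted p = 8.8e-05 and 0.012), and with the ramp 1 fell. Of 4 genes of the ejaculatory bulb and duct 3 rose with mean temperature, *Gld*, *Anp* and *EbpIII*, by 0.41, 0.24 and 0.24, while 1 fell under fluctuation and 2 with the ramp. Of 3 fat body genes *Lsp2* and *apolpp* rose with mean temperature, by 0.85 and 0.38, and *Fbp1* fell by 0.38; 1 fell under fluctuation and 1 with the ramp. Of the 15 egg shell and yolk genes 1, 2 and 1 rose in the 3 averages and none was called lower: *Cp15* rose with mean temperature, by 0.21 ± 0.06, *Cp15* and *Cp18* under fluctuation, by 0.18 ± 0.06 and 0.11 ± 0.03, and *Cp18* with the ramp, by 2.41 ± 0.03 (adjusted p of 0.031 or less). These averages include the first array of 15 °C constant, 20 °C, where the median of these genes was 8.62. Standard errors reached 0.70, for *Yp1*, so the lack of lower calls shows little.

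Regulators of the male reproductive tract were also measured, 5 of 6 listed. Their counts stand beside the same shares of all probe sets. These were 28.9% higher and 27.1% lower for mean temperature, 8.82% and 6.41% for fluctuation, and 16.2% and 17.0% for the ramp. The homeobox gene *prd* (*paired*), which the accessory gland needs to mature and to express its products, did not pass the test in any average, at -0.04 ± 0.05, -0.06 ± 0.05 and 0.04 ± 0.05 for mean temperature, fluctuation and ramp (adjusted p = 0.50, 0.47 and 0.56). With mean temperature 3 rose: *dve*, a homeobox gene expressed in the secondary cells of the gland, *EcR*, the ecdysone receptor, and the sex determination gene *dsx*, by 0.46 ± 0.07, 0.38 ± 0.07 and 0.35 ± 0.05 (adjusted p = 1.8e-05, 0.00012 and 3.35e-06). *dsx* and *fru*, another sex determination gene, rose under fluctuation, by 0.19 ± 0.05 and 0.29 ± 0.05 (adjusted p = 0.018 and 0.00056). For *fru* the array has 7 probe sets, and for *dsx* and *dve* 2 each. Only the brightest of each gene was read, so that these values may not hold for the other probe sets. With the ramp *dve*, *dsx* and *fru* fell, by 0.46 ± 0.07, 0.35 ± 0.05 and 0.14 ± 0.05 (adjusted p = 4.3e-05, 1e-05 and 0.0276), and *EcR* rose by 0.29 ± 0.07 (adjusted p = 0.004).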

How the data were processed

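Groups, replicate numbers and temperatures were taken from the labels of the samples. The log2 values were deposited by the authors, whose methods name GC-RMA (gcrma package in R) to correct the background, normalize the arrays and give 1 value per probe set; scanner files were not used, and arrays carry no depth, so that their number limits the precision. Probe sets were named from the platform annotation and matched to RefSeq by gene number, which all 23 members were; of 49 RefSeq genes with names of the rule, 26 had no probe set of their own, and 5 probe sets with several symbols were left out.

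Group means of 8 groups were fitted to the 18769 probe sets on 23 arrays with limma 3.58.1 in R 4.3.3, without covariates, and 12 contrasts, their 3 averages and 4 interactions were taken from that fit, adjusted by Benjamini-Hochberg over all probe sets with 0.05 as the threshold. The script was tested on simulated data. Figures were drawn with matplotlib 3.10.9. Members and lists were chosen with earlier results of these data known. Values are named for the members with known roles, for the 4 highest and 4 lowest in each average, for members called in a single contrast where 3 or fewer are, for the brightest and the dimmest member, and for the 2 highest and 2 lowest genes of each list; the other genes of the Acp53 cluster, further members named as called or lost, and the regulators were named after their values were seen. Sequences were not used here. Alternatives were all 24 arrays, 22 arrays, each array left out, the replicate number as a block, a variance trend, a filter at a mean of 4, quantile normalization, median centring, and a fit to the arrays of a contrast alone.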

Additional observations from a re-analysis of the deposited data

How the results depend on the processing

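The counts of called members below are from limma, each after 1 change. On all 24 arrays, with the failed array, 2 members were called for mean temperature, 0 for fluctuation and 0 for the ramp in the averages, and 0 in every single contrast and interaction. There 18 values changed sign: for mean temperature in the fluctuating regime at 35 °C *Acp53C14a* (2.31), *Acp53C14b* (2.09), *Acp53Ea* (1.85), *Acp63F* (1.51), *Acp26Aa* (1.47), *SP* (1.28), *Acp36DE* (1.17), *Acp62F* (0.75), *Acp76A* (0.55) and *Sfp38D* (0.0785), in its average *Acp98AB* (0.50), *Acp53C14a* (0.40), *Acp53C14b* (0.33), *Acp53Ea* (0.23), *SP* (0.17), *Acp63F* (0.0861) and *Sfp33A3* (0.0105), and *Acp29AB* in the ramp average (-0.18). No other alternative turned a called value. In the averages, each array left out in turn gave 18 to 19 calls for mean temperature, 12 to 16 for fluctuation and 10 to 12 for the ramp, and 22 arrays gave 19, 15 and 12; median centring gave 7 for the ramp.

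Single contrasts depended more on the fit. For mean temperature, leaving out 1 array gave 12 to 16 and 10 to 15 calls at constant 20 and 35 °C and 15 to 19 and 10 to 15 at fluctuating 20 and 35 °C, and the arrays of the contrast alone gave 6 in the last. For fluctuation at 15 °C and 20 °C, *Dup99B* was lost (0 calls) on 22 arrays, with the block, on the contrast's arrays alone, and with quantile normalization or median centring; 1 array left out gave 0 to 2, and 0 to 1 at 35 °C. At 25 °C and 20 °C the main count of 6 became 3 on the contrast's arrays alone, 11 with a variance trend, 10 with the filter and 0 to 10 with 1 array left out. At 25 °C and 35 °C the 2 calls became 0 with the block or the contrast's arrays alone, 4 on 22 arrays or with the filter, 5 with a trend and 0 to 6 with 1 array left out. For the ramp at 15 °C constant, 3 calls became 1 on the contrast's arrays alone or after centring, 5 with a trend and 1 to 4 with 1 array left out; at 15 °C fluctuating, 4 became 1 on the contrast's arrays alone and 2 to 5. At 25 °C constant, 1 call became 2 with a trend, 3 with quantile normalization and 1 to 2, and at 25 °C fluctuating 3 with a trend, 2 with the filter and 1 to 2. The causes were not tested. The difference in fluctuation between means at 20 °C was called for *Sfp53D*, 1 member, with a trend, quantile normalization or centring (adjusted p = 0.0468, 0.0487 and 0.0412), and for 0 with 1 array left out.

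The replicate numbers did not pair the samples: deviations of same-numbered arrays of different groups correlated at -0.37 to 0.49, with a median of 0.0012, and 10 of 77 pairs were over 0.1. With the replicate block 19, 13 and 11 members were called in the averages of mean temperature, fluctuation and ramp. The mean of all probe sets of a member gave the same values as the brightest, since each member had 1. Among the listed genes *fru* had 7 probe sets, *bol* 3, and *dve*, *dsx*, *hdly* and *SPR* 2 each. For these only the brightest was read.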
